A study of Mus musculus with 70 samples.

Results

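The 5 genes described here are the Il-1 family ligands Il1a, Il1b, Il1rn, Il18 and Il33. They were found by symbol among the 55011 gene symbols of a count table from mouse muscle, and all 5 were present. The table holds 70 libraries of bulk RNA sequencing in 28 groups and 6 experiments, most of them made from 1000 cells sorted from hindlimb muscle. The main question asked of it here was which cell compartment holds the transcript of each ligand in uninjured muscle (day 0) and 1 day after injury with cardiotoxin, a snake venom toxin that destroys muscle fibres.

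In the compartment experiment, the mice were C57BL/6J, and the sorted populations were CD31+ cells (the endothelial gate), CD45+ cells (leukocytes), muscle mesenchymal stromal cells (MmSCs) and muscle satellite cells (MuSCs, the muscle stem cells), with 3 libraries of each at day 0 and 3 at day 1 after cardiotoxin. The cytokine experiment took MmSCs from uninjured muscle of C57BL/6J mice after an intraperitoneal injection of PBS, of one of 4 cytokines (Il-17A, Il-1b, Oncostatin M, called Osm here, or TNFa), of Osm paired with one of the others, or of a mix of all 4. The mix was sampled at 2, 4 and 8 h and the other cytokines at 2 h. Each cytokine group had 2 libraries except the mix at 4 h, which had 1, and the PBS label carries no time. Il6RD mice, which carry an Il6 reporter, were injured with cardiotoxin, and 12 h later their MmSCs were sorted into 3 Thy1.1+ and 3 Thy1.1- libraries. MmSCs from Il1b-KO mice (3 libraries) and Il1b-WT mice (2 libraries) were taken 1 day after cardiotoxin. DMDmdx (mdx) mice lack dystrophin and have recurring muscle damage with no toxin given, and their MmSCs came at ages of 2.5 weeks (3 libraries), 7 weeks (3 libraries) and 12.5 weeks (2 libraries). Whole tibialis anterior muscle of C57BL/6J mice was taken 7 days after cardiotoxin with intraperitoneal anti-Cxcl5 antibody (aCxcl5) or IgG, with 3 libraries each. The labels used here give an age only for the mdx mice and do not tie libraries to animals. The p-values therefore describe variation among libraries, which may be partly technical.

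As background, Il-1a and Il-1b are agonists of the receptor Il1r1, which pairs with Il1rap and signals through Myd88 and the Irak kinases. Il1rn encodes the receptor antagonist, which occupies Il1r1 without signalling. Il-1b and Il-18 are made as inactive precursors that caspase-1 (Casp1) cuts after inflammasomes such as Nlrp3 assemble. Il-33 is a nuclear alarmin released from damaged cells and acts through Il1rl1 (ST2), which in muscle is known from regulatory T cells and other leukocytes. Transcript levels, the quantity measured here, do not report cutting or release.

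Il1a (ENSMUSG00000027399.1) lies at chr2:129299610-129309972 on the minus strand of GRCm38, and Il1b (ENSMUSG00000027398.13) at chr2:129364570-129371139 on the same strand. Il1rn (ENSMUSG00000026981.15) lies at chr2:24336853-24351494, Il18 (ENSMUSG00000039217.13) at chr9:50554827-50581840 and Il33 (ENSMUSG00000024810.16) at chr19:29925114-29960718, all on the plus strand. The 60 bases before the transcription starts that RefSeq lists (GRCm38.p6, 5′ to 3′ on the gene's strand) are shown because the ligands differ there. A TATA box spelled TATAAA, in capitals, precedes Il1a, Il1b and the inner of 2 Il33 starts.
Il1a, chr2:129309973-129310032: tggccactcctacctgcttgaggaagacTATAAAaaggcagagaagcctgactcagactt
Il1b, chr2:129371140-129371199: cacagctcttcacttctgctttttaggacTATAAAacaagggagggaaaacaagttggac
Il33 inner start, chr19:29945730-29945789: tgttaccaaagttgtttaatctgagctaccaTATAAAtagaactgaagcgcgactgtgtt
Il33 outer start, chr19:29925053-29925112: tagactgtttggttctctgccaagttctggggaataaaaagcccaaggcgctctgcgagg
Il18, chr9:50554640-50554699: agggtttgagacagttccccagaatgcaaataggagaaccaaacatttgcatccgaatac
The first T of TATAAA stood at -32 for Il1a, -31 for Il1b and -29 for the inner Il33 start, counted from the start site. Of 32851 RefSeq mouse promoters, 613 (1.87%) hold TATAAA on the gene's strand between -40 and -20. The outer Il33 start, the Il18 start and the 3 Il1rn starts had none there. The count table sums all transcripts of a gene, so which Il33 start was used was not measured. No window of 250 bases before a member's start held the STAT letters TTCNNNGAA or the NF-kB consensus on either strand, which 7.02% and 5.0% of all promoters hold, and this says only that these letters are not in these windows.

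Total counts per library ran from 2252373 to 8408842. Values are in CPM, a gene's counts per 1000000 counts of its library, given per kilobase of exon only where levels of different genes are compared. The sorted groups carried their defining markers: Pecam1, an endothelial adhesion molecule, averaged 2160 CPM in CD31+ cells at day 0, Pax7, the satellite cell transcription factor, 731 CPM in MuSCs and Pdgfra, the stromal receptor, 478 CPM in MmSCs. Some libraries carried transcripts of another compartment. The summed CPM of 8 leukocyte markers was 185 in library 1 of the day 1 CD31+ cells against 25.2 and 26.8 in the other two and 21.6 to 40.2 at day 0. In day 1 MuSCs, Pdgfra was 0.328, 54.9 and 28.1 CPM in libraries 1, 2 and 3, and Dcn, a stromal proteoglycan, was 18.4, 398 and 283 CPM. At day 0 Pdgfra reached at most 0.444 CPM and Dcn 85.7 CPM in MuSCs. The sum of 8 stromal markers that include both was 1930 to 2120 CPM in MuSCs at day 0 and 715 to 1100 CPM at day 1. In CD31+ cells that stromal sum was 1110 to 1440 and 1350 to 1530 CPM. The sum of 6 pericyte and smooth muscle markers was 1450 to 2580 CPM in MuSCs at day 0 and 534 to 1080 CPM at day 1. In CD31+ cells it was 558 to 843 and 302 to 490 CPM, and in MmSCs 30.8 to 83.1 and 30.2 to 53.1 CPM. The part of these cells in the ligand values was not tested.

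Il1b was a transcript of CD45+ cells at both times. In uninjured muscle it stood at 779, 316 and 1500 CPM in the 3 CD45+ libraries (864 ± 596, SD, n = 3), with 0 counts in every MmSC library, 2 counts in all CD31+ libraries together and 1 count in all MuSC libraries. The CD45+ level was at least 1660-fold above MmSCs, with 3 counts per library taken as the floor, and 8820-fold above MuSCs (95% exact counting interval 1580 to 349000). Against CD31+ cells the ratio was 4700-fold (1300 to 38800). Without library 2 of the MuSCs or library 2 of the CD31+ cells, which held these counts, the ratios were at least 1170-fold and at least 1100-fold, and the one over MmSCs was at least 1050-fold without library 3 of the CD45+ cells. Such intervals cover counting error only. At day 1 the CD45+ libraries held 3310, 5360 and 3620 CPM (4100 ± 1100), and all MmSC libraries together held 1 count. No CD45+ library overlapped with a library of another compartment on either day.

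The plot of the members by compartment shows the division between CD45+ cells and MmSCs.

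**Figure D1:**
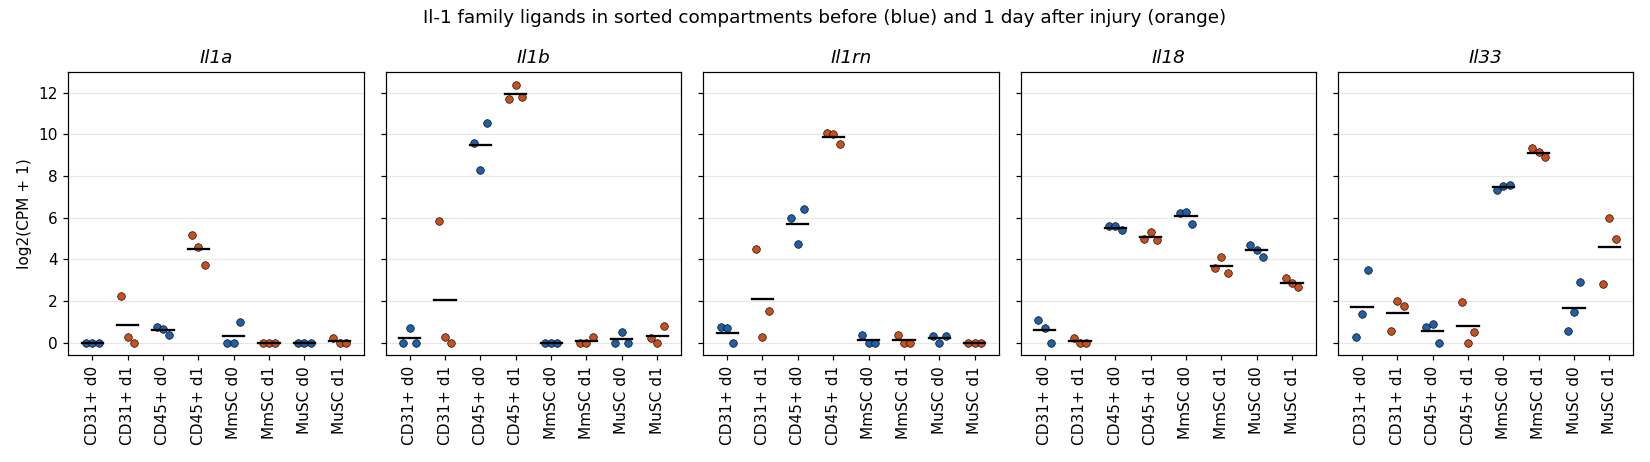
Level of each ligand in the 24 compartment libraries, as log2(CPM + 1) on the vertical axis, with 1 panel per gene and the 4 sorted compartments at day 0 (blue) and day 1 (orange) on the horizontal axis; points are libraries and bars are means of 3. Il1b and Il1rn stand high in CD45+ cells, Il33 in MmSCs, and Il18 falls in MmSCs from 67.4 to 12.2 CPM.

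Il1b in CD31+ cells came from 1 library. It was 0, 0.624 and 0 CPM at day 0 and 56.0, 0.196 and 0 CPM at day 1. Library 1 at day 1 is the one with a summed leukocyte marker level of 185 CPM, and its summed level of 8 macrophage and monocyte markers was 184 CPM against 19.6 and 16.4 in the others. Il1rn was also highest there, at 21.5 CPM against 0.196 and 1.9. The CD31+ injury test for Il1b passed narrowly (edgeR's quasi-likelihood test, p adjusted by Benjamini-Hochberg across the whole table, adjusted p = 0.0488, 23.4% of all genes called), with a count ratio of 114 (31.4 to 947). The groups overlapped, and the call ended without any one of the 3 day 0 libraries (adjusted p from 0.117 to 0.153). Without library 1 at day 1 a single day 1 count was left and no ratio was given, and without library 2 at day 0, which held both day 0 counts, the ratio was at least 23.9. The part of leukocyte RNA in this value was not tested.

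Il1a was low everywhere except in CD45+ cells after injury. CD45+ cells held 0.681, 0.575 and 0.301 CPM at day 0 and 35.3, 23.2 and 12.4 CPM at day 1, with no overlap. MmSCs held 0 counts in all 3 day 1 libraries and 5 counts in 1 library at day 0. MuSCs held 1 count over all 6 libraries. At day 1 the CD45+ level was at least 47.9-fold above MmSCs and 434-fold above MuSCs (77.4 to 17200), or at least 48.6-fold without library 1 of the MuSCs, which held the count. CD31+ cells held 3.64, 0.196 and 0 CPM at day 1, and the fitted difference from CD45+ cells was -4.42 ± 0.98 on the log2 scale (± SE here and below, adjusted p = 0.00118), a call that DESeq2 did not make (adjusted p = 0.0706). Library 1 of the CD31+ cells, with the high leukocyte markers, held 23 of their 24 counts, and without it the fitted difference, then resting on 1 count, was -7.94.

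Il1rn, the antagonist, shared the CD45+ compartment. Its CD45+ libraries held 62.0, 25.3 and 83.9 CPM at day 0 and 1070, 1040 and 736 CPM at day 1. MmSCs held 2 counts on each day over 3 libraries, and MuSCs 2 counts at day 0 and 0 at day 1. The CD45+ level was 511-fold above MmSCs at day 0 (141 to 4220) and 8740-fold above them at day 1 (2420 to 72200). Without library 1 of the MmSCs, the ratios were at least 98.5-fold at day 0 and at least 1790-fold at day 1. Over MuSCs at day 1 it was at least 1940-fold higher. The difference between CD31+ and CD45+ cells was -6.97 ± 1.20 at day 0 (adjusted p = 0.00016) and -7.14 ± 0.80 at day 1 (adjusted p = 1.75e-06). Without library 1 of the day 1 CD31+ cells the latter was -10.04.

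The plot of Il1b and Il1rn against leukocyte markers sets these values beside each library's summed marker level.

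**Figure D2:**
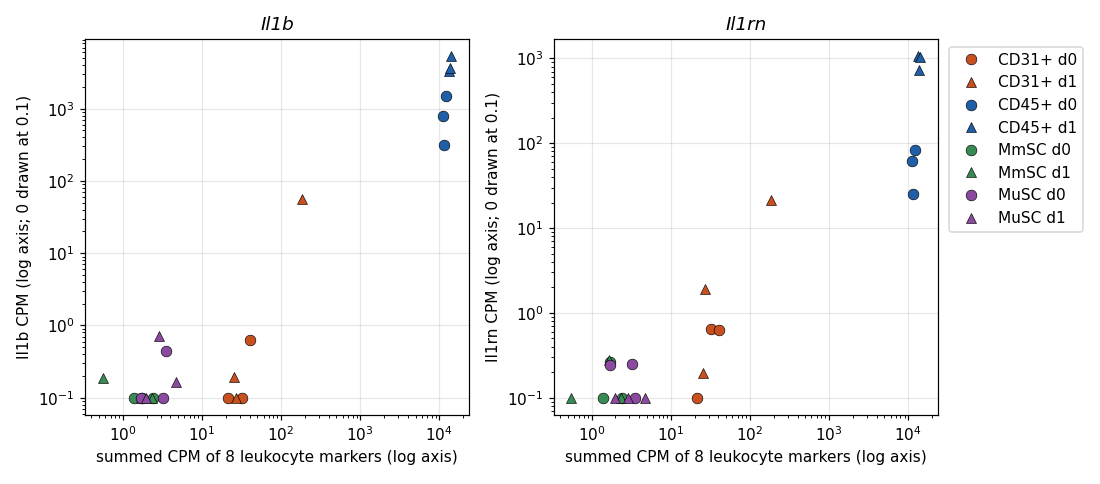
Level of Il1b (left) and Il1rn (right) in CPM against the summed CPM of 8 leukocyte markers in each compartment library, both axes logarithmic, with values of 0 drawn at 0.1; circles are day 0, triangles day 1. CD45+ libraries sit at the upper right with marker sums of 11200 to 14200 CPM, and library 1 of the day 1 CD31+ cells sits above the other CD31+ libraries at 185 CPM.

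In CD45+ cells 2 of the 5 ligands were called higher at day 1 by the main test. This count lay near the 34.3% of all genes called there. Il1a rose by 5.65 ± 1.14 (adjusted p = 0.00109) and Il1rn by 4.31 ± 0.68 (adjusted p = 0.000178). The Il1b difference was 2.52 ± 0.96 and missed the threshold (adjusted p = 0.0571), although its groups did not overlap. Fitted on the 6 CD45+ libraries alone it was 2.49 (adjusted p = 0.0328). Neutrophil markers differed in the same direction: 8 of them summed to 1110 to 3560 CPM at day 0 and 4930 to 7590 CPM at day 1, while 8 macrophage and monocyte markers summed to 18400 to 22500 and 20400 to 21600 CPM. In the other direction, 8 B, T and NK cell markers summed to 531 to 2350 and then 5.24 to 38.0 CPM. The sums of 6 mast cell markers were 23.2 to 1850 and then 2.8 to 388 CPM, which overlapped. The cell makeup of the CD45+ gate and the amount of transcript per cell cannot be told apart in bulk libraries. The part of neutrophils and of these other cell types in the ligand values was not tested.

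Per kilobase of exon, Il1b made up most of the CD45+ ligand transcripts. It averaged 453 ± 312 CPM per kb at day 0 and 2150 ± 579 at day 1, against 10.3 ± 5.35 and 171 ± 33.4 for Il1rn. Its share of the summed level of the 5 ligands was 85.9% ± 8.54 at day 0 and 90.6% ± 2.49 at day 1. The Il1rn share was 2.11% ± 0.299 and then 7.46% ± 2.03, and the Il18 share 11.9% ± 8.31 and then 1.38% ± 0.131. In MmSCs, Il18 and Il33 split the total almost evenly at day 0, with 51.1% ± 7.28 and 48.7% ± 7.05. At day 1 Il33 held 94.3% ± 1.58 of it. CD31+ cells had no steady composition, with an Il33 share of 46.7% ± 48.2 at day 0.

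**Figure D3:**
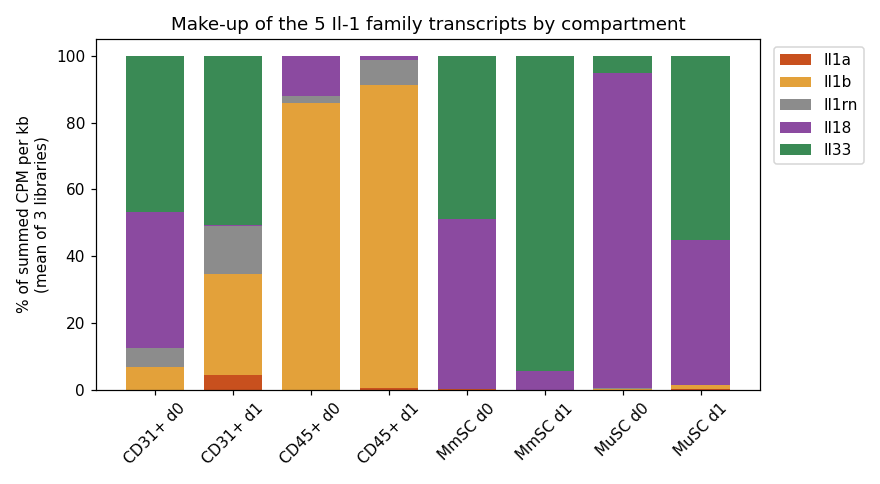
Mean share of each ligand in the summed CPM per kilobase of the 5 ligands, in percent, in each compartment at day 0 and day 1 (3 libraries per bar). Il1b fills 85.9% and 90.6% of the CD45+ bars, and the MmSC bar goes from 51.1% Il18 and 48.7% Il33 at day 0 to 94.3% Il33 at day 1.

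Il33 was highest in MmSCs on both days. Its MmSC level was 159, 183 and 191 CPM at day 0 (178 ± 16.6) and 646, 564 and 481 CPM at day 1 (564 ± 82.7), and the groups did not overlap. CD31+ cells held 0.218, 1.56 and 10.4 CPM at day 0 and 0.474, 2.95 and 2.42 CPM at day 1. CD45+ cells held 0.681, 0.862 and 0 CPM at day 0 and 2.82, 0 and 0.4 CPM at day 1. The MmSC libraries were thus above every library of the other compartments on the same day.

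At day 0 the Il33 difference from MmSCs was -5.88 ± 0.87 in CD31+ cells (adjusted p = 2.19e-05) and -8.56 ± 1.12 in CD45+ cells (adjusted p = 4.33e-06). MmSCs exceeded MuSCs by 6.44 ± 0.90 (adjusted p = 1.46e-05). Without library 3 of the CD31+ cells, at 10.4 CPM, the first was -8.13, and without library 3 of the MuSCs the last was 8.10. The other three compartments did not differ from each other beyond their spread at day 0 (adjusted p from 0.223 to 0.74). At day 1 the difference from MmSCs was -8.26 ± 0.92 in CD31+ cells (adjusted p = 8.54e-07) and -8.81 ± 1.00 in CD45+ cells (adjusted p = 6.35e-07), and MmSCs stood 4.24 ± 0.70 above MuSCs (adjusted p = 0.000127), or 5.03 without library 2 of the MuSCs. The CD45+ values rest on 6 Il33 counts over the 3 libraries at day 0 and 15 at day 1. In these day 0 comparisons, 46.9% (CD31+ and MmSC), 56.6% (CD45+ and MmSC), 40.5% (MmSC and MuSC), 50.5% (CD31+ and CD45+), 49.0% (CD31+ and MuSC) and 56.1% (CD45+ and MuSC) of all genes were called. At day 1, in the same order, the shares were 51.4%, 61.4%, 33.5%, 53.0%, 54.1% and 64.2%.

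The Il33 difference between day 1 and day 0 in MmSCs did not pass in the fit of all 8 groups, at 1.40 ± 0.61 (adjusted p = 0.0768, 41.6% of all genes called). In a fit of the 6 MmSC libraries alone it was 1.53 and passed (adjusted p = 2.08e-06), where 57.3% of all genes were called. The larger fit takes 1 spread for the gene over all compartments, including those with few and uneven Il33 counts. The spread among the MmSC libraries themselves was 16.6 CPM at day 0 and 82.7 CPM at day 1.

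In day 1 MuSCs, Il33 varied by library together with Pdgfra and Dcn, both among 8 stromal markers. The summed CPM of the 8 was lower in MuSCs at day 1, at 715 to 1100 against 1930 to 2120 at day 0. Il33 in MuSCs was 0.484, 1.78 and 6.48 CPM at day 0 and 6.06, 62.3 and 31.0 CPM at day 1. The groups overlapped. Libraries 2 and 3 at day 1, with the high values, are those with Pdgfra at 54.9 and 28.1 CPM. As a percentage of the day 1 MmSC mean, Il33 was 1.08%, 11.1% and 5.5% in the 3 MuSC libraries, Pdgfra 0.0495%, 8.29% and 4.24%, and Dcn 0.174%, 3.78% and 2.68%. Il1rl1 was 0.164, 49.9 and 3.01 CPM there and had 0 counts in MuSCs at day 0. The Il33 call in MuSCs, 3.61 ± 0.92 (adjusted p = 0.00456, 38.6% of all genes called), was lost in the fit of the 6 MuSC libraries alone, at 3.63 (adjusted p = 0.0586). It was 5.27 without library 3 at day 0 and 2.83 without library 2 at day 1. With library 1 as the only day 1 MuSC library, an alternative chosen after seeing the data, the difference was 1.04 (adjusted p = 0.589), which takes the lone library to vary like the other groups. The part of stromal RNA in the MuSC values was not tested. Without libraries 2 and 3, MmSCs still exceeded MuSCs at day 1 by 6.75 (adjusted p = 0.000534).

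Il18 was the ligand shared between compartments. At day 0 it was 74.2, 76.4 and 51.5 CPM in MmSCs, 47.7, 46.8 and 41.2 CPM in CD45+ cells, 25.2, 20.9 and 16.4 CPM in MuSCs, and 1.09, 0.624 and 0 CPM in CD31+ cells. No 2 compartments overlapped. The order MmSC, CD45+, MuSC, CD31+ held in all pairs by the test, with MmSCs 2.31 ± 0.28 above MuSCs (adjusted p = 3.45e-07) and CD45+ cells 1.47 ± 0.28 above MuSCs (adjusted p = 9.09e-05). The difference of CD31+ cells from MuSCs was -4.72 ± 0.46 (adjusted p = 6.06e-09), and -5.82 without library 1 of the CD31+ cells. The step from CD45+ cells to MmSCs, -0.83 ± 0.26 (adjusted p = 0.00931), was the least stable. It lost its call without library 2 of the CD45+ cells (adjusted p = 0.0674) and without library 1 or 2 of the MmSCs (adjusted p = 0.157 and 0.146).

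After injury the order of Il18 changed. Day 1 levels were 30.8, 39.1 and 29.4 CPM in CD45+ cells, 10.9, 16.4 and 9.26 CPM in MmSCs, 7.54, 6.32 and 5.31 CPM in MuSCs, and 0.158, 0 and 0 CPM in CD31+ cells. CD45+ cells then exceeded MmSCs by 1.70 ± 0.28 (adjusted p = 1.34e-05) and MuSCs by 2.76 ± 0.30 (adjusted p = 1.92e-08). MmSCs exceeded MuSCs by 1.07 ± 0.30 (adjusted p = 0.0076), but by 0.80 without library 2 of the day 1 MmSCs (adjusted p = 0.0702) and 0.91 with library 1 as the only day 1 MuSC library (adjusted p = 0.186). CD31+ cells held a single count over 3 libraries, 210-fold below MmSCs (37.3 to 8340). Without library 1 of the CD31+ cells, which held the count, they were at least 22.0-fold below.

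With injury Il18 fell by 2.74 ± 0.28 in MmSCs (adjusted p = 3.94e-08) and by 1.5 ± 0.30 in MuSCs (adjusted p = 0.000335), without overlap in either. In CD45+ cells the difference was -0.21 ± 0.27 (adjusted p = 0.59), although each day 1 library lay below each day 0 library in CPM. The CPM and the fit differ because TMM scaling factors averaged 0.989 in CD45+ cells at day 0 and 0.832 at day 1. The responses themselves differed between CD45+ cells and MmSCs by 2.53 ± 0.39 (adjusted p = 2.45e-05), an interaction for which 25.0% of all genes were called. Between CD45+ cells and MuSCs the interaction was 1.29 ± 0.40 (adjusted p = 0.0207, 24.3% called), and it was lost without library 1 of the day 0 MuSCs (1.09, adjusted p = 0.0756), without library 3 of the day 1 MuSCs (1.16, adjusted p = 0.0606) or with library 1 as the only day 1 MuSC library (1.25, adjusted p = 0.116). Between MmSCs and MuSCs it was -1.24 ± 0.41 (adjusted p = 0.0662, 7.74% called), and DESeq2 called it (adjusted p = 0.0276). Marker sums also fell in these gates. In MmSCs, 8 stromal markers summed to 45600 to 56200 CPM at day 0 and 15600 to 19700 CPM at day 1. There 6 myofibre markers summed to 117 to 299 and 2.66 to 13.4 CPM, and 8 endothelial markers to 85.5 to 98.3 and 8.71 to 16.1 CPM. No listed marker sum rose without overlap in MmSCs or MuSCs. The part of cell makeup in the Il18 values was not tested.

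Il1a, Il1b and Il18 overlap a gene on the opposite strand, and the strand setting of the counting is not given in the sources used here. Bco2, a carotenoid-cleaving enzyme, overlaps the first exons of Il18 and was 18.4, 13.9 and 5.56 CPM in MmSCs at day 0 against 0.14, 0.67 and 0.371 CPM at day 1. In MuSCs Bco2 stayed at or below 0.361 CPM, where Il18 also fell. Il1bos, antisense to Il1b, averaged 0.835 CPM in CD45+ cells at day 0 and 7.98 CPM at day 1, and Gm14023, antisense to Il1a, 1.35 and 6.66 CPM. Reads of the 2 strands in these overlaps cannot be told apart.

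Among the receptors, Il1r1 was highest in MmSCs, and Il1r2 was high in CD45+ cells after injury. Of 9 receptors, decoys and binding proteins, all tested, 2 rose and 3 fell with injury in CD45+ cells (median -0.75 on the log2 scale, all genes -0.12), 2 rose and 1 fell in MmSCs (median -0.61, all genes -0.22), 3 rose in MuSCs (Il18rap, Sigirr and Il1rl1) and 1 fell in CD31+ cells (Sigirr, an inhibitory receptor). Over all genes, 34.3%, 41.6%, 38.6% and 23.4% were called in these 4 comparisons, so the count lay above that share in CD45+ cells only and below it in the others. Il1r1, the signalling receptor, was 49.6, 51.2 and 52.7 CPM in MmSCs at day 0 and 119, 126 and 120 CPM at day 1, a rise of 0.98 ± 0.25 (adjusted p = 0.00254). In CD45+ cells it fell by 2.40 ± 0.56 (adjusted p = 0.00172) from a mean of 3.61 CPM. The decoy receptor Il1r2 rose there from 56.2 ± 25.9 to 799 ± 192 CPM, by 4.08 ± 0.73 (adjusted p = 0.000485), and was 56.2 ± 30.3 and 27.6 ± 12.2 CPM in MmSCs. In CD45+ cells Il1rap, the shared coreceptor, rose by 1.95 ± 0.27 (adjusted p = 4.71e-06).

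Il1rl1, the Il-33 receptor, was higher after injury in the MmSC gate, where Il33 was also highest. It was 1.2, 0.938 and 0.596 CPM at day 0 and 467, 535 and 316 CPM at day 1, a rise of 8.55 ± 1.27 (adjusted p = 6.24e-05). In CD45+ cells it was 75.4, 53.5 and 34.3 CPM at day 0 and 1.52, 8.46 and 4.4 CPM at day 1 and fell by 3.26 ± 1.03 (adjusted p = 0.0231). Summed B, T and NK cell markers also fell in the CD45+ gate, as given above. Summed mast cell markers were 1850, 484 and 23.2 CPM in its day 0 libraries 1, 2 and 3, in the order of Il1rl1. At day 1 both were highest in library 2, at 388 CPM for the markers, but libraries 1 and 3 stood in opposite order. At day 0 the B, T and NK sums ran the other way, at 531, 1190 and 2350 CPM. The part of these cell types in the Il1rl1 values was not tested. Soluble and membrane forms of Il1rl1 were not separated by the counts. Whether the same cells hold Il33 and Il1rl1 cannot be told from bulk libraries. Il18r1, a subunit of the Il-18 receptor, was called lower in MmSCs at day 1 (adjusted p = 0.000134), from a mean of 5.81 CPM, with libraries from 0.795 to 11.6, to a single count over 3 libraries. Il18bp, the secreted protein that binds Il-18, was highest in CD31+ cells, at 45.3 ± 4.11 and 37.0 ± 7.58 CPM, and was called in no compartment's injury comparison.

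**Figure D4:**
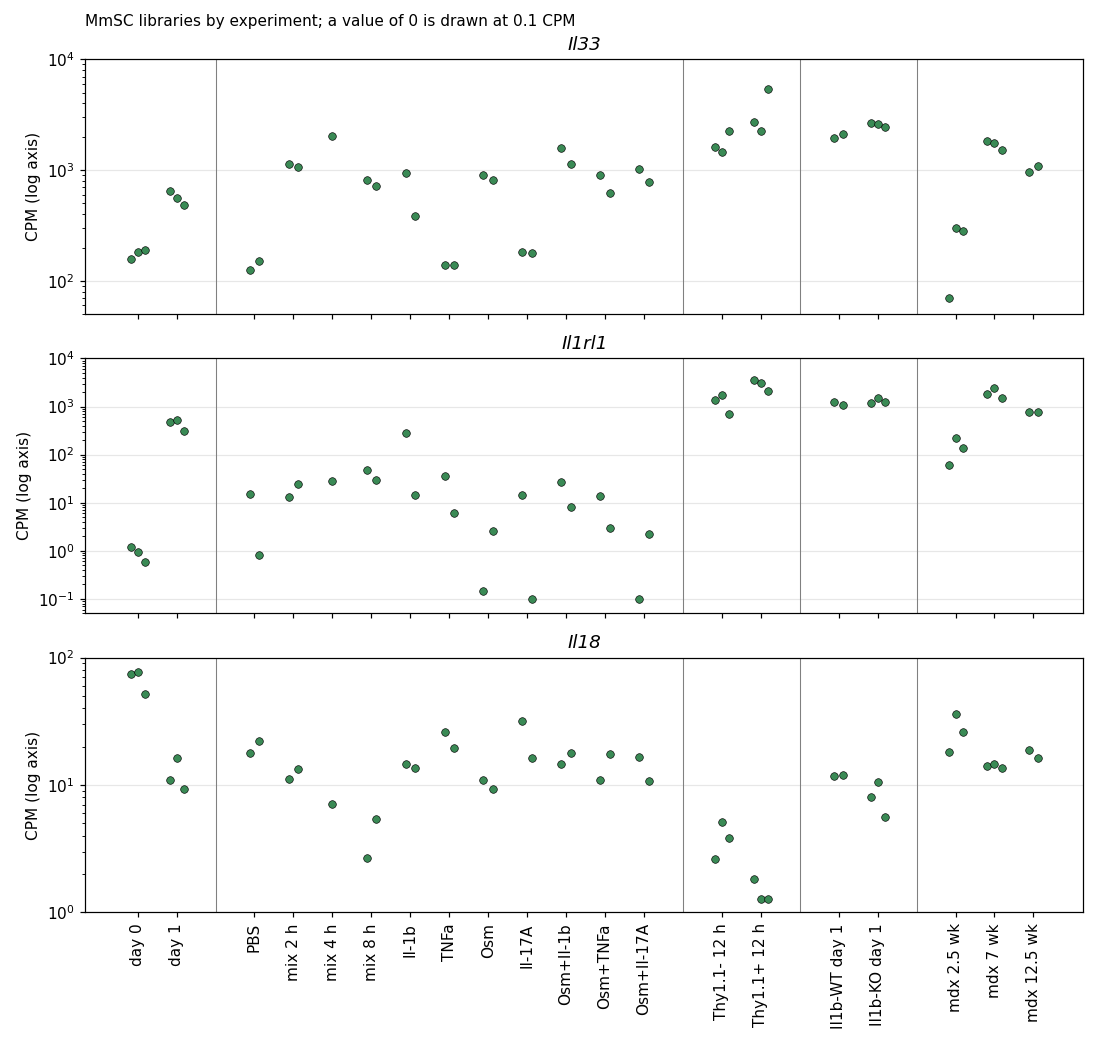
Level of Il33, Il1rl1 and Il18 in every MmSC library, in CPM on a logarithmic axis, arranged by experiment and group, with values of 0 drawn at 0.1; points are libraries, and the mix at 4 h has 1. Il33 lies between 70.6 and 5350 CPM throughout, whereas Il1rl1 spans 0 to 3640 CPM. Levels were not compared between experiments.

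Of 10 inflammasome genes listed, 4 rose and 1 fell in CD45+ cells (34.3% of all genes called), 1 rose and 2 fell in MmSCs (41.6%, above the list's share), and 1 rose and 3 fell in CD31+ cells (23.4%). Nlrp3, the sensor, rose in CD45+ cells from 29.0 ± 12.2 to 176 ± 21.1 CPM, by 2.85 ± 0.53 (adjusted p = 0.00153), and had 0 counts in all MmSC and MuSC libraries. Pycard, the adaptor, rose by 1.25 ± 0.17 (adjusted p = 3.36e-06) and Mefv, the pyrin sensor, by 2.33 ± 0.41 (adjusted p = 0.000546), while Nek7, an Nlrp3 partner, fell by 1.15 ± 0.24 (adjusted p = 0.000508). Casp1 was 94.1 CPM at day 0 and 68.7 CPM at day 1 in CD45+ cells (-0.22, adjusted p = 0.561). It fell in MmSCs by 1.30 ± 0.31 (adjusted p = 0.00205) and in CD31+ cells by 1.23 ± 0.30 (adjusted p = 0.00467). Casp4, the caspase of the noncanonical inflammasome, rose in MmSCs by 1.49 ± 0.24 (adjusted p = 1.97e-05).

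Of 10 proteases known to cut family members, 8 were tested, and 2 rose and 1 fell in CD45+ cells, near the 34.3% of all genes called there. Prtn3, a neutrophil protease, rose by 3.60 ± 0.77 (adjusted p = 0.000987), Capn2, a calpain, rose by 0.65 ± 0.14 (adjusted p = 0.000799), and Gzmb, granzyme B, went from 13.5 ± 5.39 CPM to 0 counts. Summed B, T and NK cell markers also fell in that gate, as given above, and their part in the Gzmb value was not tested. Of 11 MyD88 signalling genes, 5 rose and 1 fell in CD45+ cells. In MmSCs 1 rose and 3 fell, where 41.6% of all genes were called. Myd88 rose in both, by 1.30 ± 0.17 (adjusted p = 2e-06) and 0.94 ± 0.17 (adjusted p = 6.98e-05). Irak3, the inhibitory kinase of the pathway, rose in CD45+ cells by 0.94 ± 0.29 (adjusted p = 0.0127) and fell in MmSCs by 0.74 ± 0.27 (adjusted p = 0.0339). Of the 5 other family ligands in the table, Il1f9, the older symbol of Il36g, was the one tested. It was 18.6, 4.89 and 43.9 CPM in CD45+ cells at day 0 and 181, 203 and 144 CPM at day 1, a rise of 3.25 ± 0.59 (adjusted p = 0.00289), with 0 counts in MmSCs and MuSCs. Il1f5, Il1f6, Il1f8 and Il1f10 held 18, 4, 20 and 2 counts over all 70 libraries.

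Genes whose log2(CPM + 1) ran closest to each ligand over the 24 compartment libraries are given as a description, since these libraries share compartments. For Il1b these were Lilr4b (Pearson r = 0.996), Rgs1 (0.993) and Ccl6 (0.992), for Il1rn Clec4e (0.992), F10 (0.989) and Ccl4 (0.989), and for Il1a Gpr84 (0.919), Arg1 (0.911) and Ctsd (0.909). For Il33 they were Ccbe1 (0.967), Zfp385b (0.964) and Lox (0.962), and for Il18 Scpep1 (0.973), Hnmt (0.947) and Lrp1 (0.935).

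Cytokine injection raised Il33 in MmSCs of uninjured muscle, and the response followed the agent. Il33 was 126 and 152 CPM after PBS, 138 and 138 CPM after TNFa and 181 and 177 CPM after Il-17A. It was 950 and 382 CPM after Il-1b and 900 and 815 CPM after Osm. After the pairs it was 1570 and 1130 CPM with Osm and Il-1b, 911 and 624 CPM with Osm and TNFa, and 1020 and 778 CPM with Osm and Il-17A. Every library given Il-1b or Osm, alone or paired, lay above both PBS libraries, the lowest of them at 382 CPM. The mix gave 1140 and 1060 CPM at 2 h, 2040 CPM in the single library at 4 h, and 814 and 723 CPM at 8 h. In CPM the mix at 2 h stood 1.42-fold above 8 h, less than the fitted fall given below. The fits use TMM scaling factors, which averaged 0.823 at 2 h of the mix, 1.14 at 8 h and 1.18 after PBS.

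Against PBS, Il33 rose by 2.55 ± 0.30 with Il-1b (adjusted p = 1.27e-05, 33.3% of all genes called) and by 2.87 ± 0.31 with Osm (adjusted p = 3.96e-06, 34.2% called). The Il-1b value was 1.84 without library 1 of that group and 3.03 without library 2. The difference was 0.13 ± 0.29 with TNFa (adjusted p = 0.822, 14.8% called) and 0.37 ± 0.29 with Il-17A (adjusted p = 0.544, 5.59% called). Il33 rose by 3.72 ± 0.32 with Osm and Il-1b (adjusted p = 2.45e-07, 41.7% called), by 2.80 ± 0.31 with Osm and TNFa (adjusted p = 4.37e-06, 36.9% called) and by 2.96 ± 0.31 with Osm and Il-17A (adjusted p = 2.83e-06, 35.5% called). With the mix it rose by 3.49 ± 0.31 at 2 h (adjusted p = 4.81e-07, 38.5% called), 4.11 ± 0.35 at 4 h (adjusted p = 3.01e-07, 36.4% called) and 2.52 ± 0.30 at 8 h (adjusted p = 1.57e-05, 28.5% called). The SE and p at 4 h take the single library to vary like the other groups. These 10 comparisons share the same 2 PBS libraries, whose label gives no time.

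Direct comparisons of the cytokine groups separated Il-1b from TNFa but gave less firm answers for the pairs. Il33 was 2.42 ± 0.30 higher with Il-1b than with TNFa (adjusted p = 0.000136, 10.5% of all genes called), or 1.70 without library 1 of the Il-1b group, and 2.67 ± 0.30 higher with Osm and TNFa than with TNFa (adjusted p = 2.29e-05, 18.4% called). Osm with Il-1b exceeded Il-1b by 1.17 ± 0.29 (adjusted p = 0.0241, 7.3% called), but by 0.69 without library 2 of the Il-1b group (adjusted p = 0.0617) and by 0.94 without library 1 of the pair (adjusted p = 0.163), and with no filter on low counts the 1.17 was not called (adjusted p = 0.112). Over Osm the same pair stood 0.84 ± 0.29 higher (adjusted p = 0.0695, 13.2% called), which DESeq2 called (adjusted p = 0.0312). Adding TNFa or Il-17A to Osm gave differences of -0.07 ± 0.28 (adjusted p = 0.948) and 0.09 ± 0.28 (adjusted p = 0.968). Il-1b and Osm differed by -0.32 ± 0.28 (adjusted p = 0.612), and by -1.04 without library 1 of the Il-1b group (adjusted p = 0.00131). From 2 h to 8 h of the mix Il33 fell by 0.98 ± 0.29 (adjusted p = 0.0154, 35.1% called), a call lost without library 1 at 2 h (adjusted p = 0.0729) or library 2 at 8 h (adjusted p = 0.107), and with no filter on low counts (-0.95, adjusted p = 0.105).

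Il18 was lowest at the later times of the mix. It was 17.8 and 22.1 CPM after PBS, 11.2 and 13.3 CPM at 2 h of the mix, 7.14 CPM at 4 h, and 2.69 and 5.39 CPM at 8 h. All libraries of the mix lay below both PBS libraries. The fitted change was -0.19 ± 0.33 at 2 h (adjusted p = 0.69), -1.24 ± 0.43 at 4 h (adjusted p = 0.027) and -2.28 ± 0.37 at 8 h (adjusted p = 4.05e-05). At 2 h the fit differs from the CPM because scaling factors averaged 1.18 after PBS and 0.823 at 2 h of the mix. The 4 h call rests on 1 library and was lost without library 2 of the PBS group, at -1.12 (adjusted p = 0.0931). From 2 h to 8 h Il18 fell by 2.09 ± 0.38 (adjusted p = 0.000112). No single cytokine or pair changed Il18 past the threshold at 2 h, with Osm nearest at -0.72 ± 0.33 (adjusted p = 0.101). Later times were sampled for the mix only. Since the PBS label gives no time, time after injection and the mix cannot be told apart in the later changes.

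**Figure D5:**
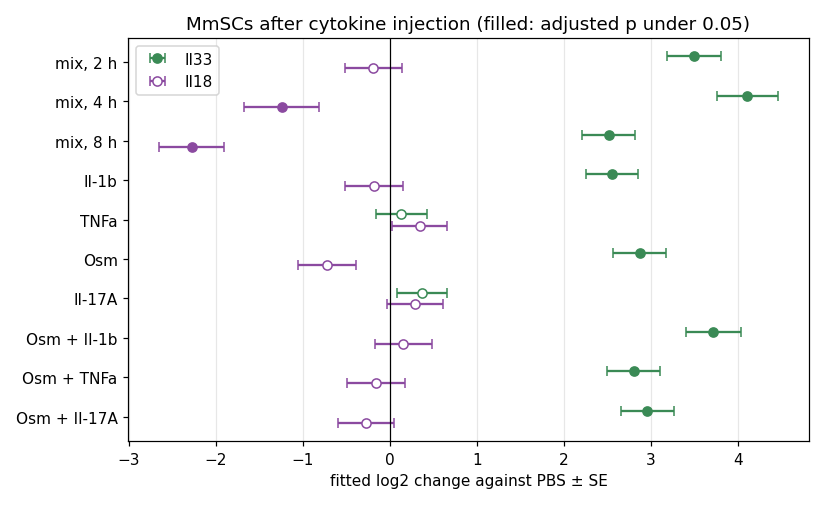
Fitted log2 change of Il33 (green) and Il18 (purple) in MmSCs after each cytokine injection against PBS, with bars of 1 SE; filled points have an adjusted p under 0.05. Il33 lies above 2.5 in every group that received Il-1b or Osm and near 0 with TNFa or Il-17A alone, while Il18 falls to -2.28 with the mix at 8 h.

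Il1a, Il1b and Il1rn stayed near 0 in the MmSCs of injected mice. Il1b had 0 counts in all libraries but 1 TNFa library, at 0.694 CPM, and Il1rn did not exceed 1.78 CPM. Il1r1 was 86.6 and 72.9 CPM after PBS and 399 and 511 CPM at 2 h of the mix, a rise of 3.03 ± 0.21 (adjusted p = 1.47e-10). It rose with Il-1b by 1.53 ± 0.20 (adjusted p = 3.88e-06) and with Osm by 1.88 ± 0.20 (adjusted p = 2.17e-07), and was 0.50 with TNFa (adjusted p = 0.102). Il1rl1 was called in none of the 10 comparisons with PBS, with 15.3 and 0.799 CPM after PBS and 286 and 14.4 CPM after Il-1b.

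Of the 9 receptor genes 7 were tested after injection, and 3 rose with the mix at 2 h, 3 with Il-1b, 3 with Osm and 1 with TNFa, where 38.5%, 33.3%, 34.2% and 14.8% of all genes were called. Of 6 inflammasome genes tested, 4 rose with the mix at 2 h (median 2.01, all genes -0.06), among them Casp4 by 4.91 ± 0.20 (adjusted p = 3.79e-15) and Casp1 by 2.00 ± 0.29 (adjusted p = 6.38e-06). Of 11 MyD88 genes, 5 rose with the mix at 2 h, 4 with Il-1b, 4 with TNFa and 3 with Osm, against the same shares of all genes. Irak3 rose by 3.30 ± 0.19 with the mix (adjusted p = 2.04e-12), 3.18 ± 0.19 with Il-1b, 2.11 ± 0.18 with TNFa and 1.19 ± 0.18 with Osm. Il18bp rose by 1.40 ± 0.27 with the mix (adjusted p = 0.000218) and by 1.14 ± 0.27 with TNFa (adjusted p = 0.00516). Il33 was not called with TNFa, and the reason was not tested.

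In MmSCs 12 h after injury, Il33 was present on both sides of the Il6 reporter sort, which has no uninjured group. Levels were not compared between experiments. At day 1 after cardiotoxin, Il33 averaged 564 CPM in MmSCs of the compartment experiment and 2050 CPM in Il1b-WT MmSCs. In the reporter sort Il33 was 2710, 2260 and 5350 CPM in Thy1.1+ cells and 1620, 1470 and 2240 CPM in Thy1.1- cells. The groups did not overlap, and the difference was 1.02 ± 0.41 (adjusted p = 0.448). In that fit 0.0% of all genes were called: edgeR called 0 genes, with 1253 at an unadjusted p under 0.05, and DESeq2 called 177. Same-numbered libraries varied together, and with the replicate number as a block the difference was 0.92 (adjusted p = 0.000214), in a fit that called 11.6% of all genes. Il1rl1 was 3640, 3090 and 2130 CPM in Thy1.1+ cells and 1360, 1740 and 701 CPM in Thy1.1- cells, also without overlap. Il18 was 1.83, 1.27 and 1.27 CPM against 2.61, 5.16 and 3.87 CPM, without overlap, at -1.38 ± 0.45 (adjusted p = 0.362). Il1b was 14.4, 0 and 0 CPM and Il1rn 10.4, 0.141 and 0 CPM in Thy1.1+ cells. Library 1 held these Il1b and Il1rn values, and its summed leukocyte markers were 7.11 CPM against 1.69 and 0.952 in the other Thy1.1+ libraries.

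In the Il1b-KO comparison the targeted gene itself was near 0 in MmSCs of both genotypes. Il1b had 0, 0 and 1 counts in Il1b-KO libraries and 2 and 5 counts in Il1b-WT libraries, a ratio of 8.88 (1.14 to 400), so these cells give little check of the genotype. Il33 was 2660, 2610 and 2450 CPM in Il1b-KO and 1960 and 2140 CPM in Il1b-WT MmSCs at day 1. Each Il1b-KO library lay above both Il1b-WT libraries. The difference was 0.33 ± 0.08 and did not pass (adjusted p = 0.0841, 1.21% of all genes called), but it did without library 2 of the Il1b-WT group, at 0.42 (adjusted p = 0.0339), and with no filter on low counts, at 0.33 (adjusted p = 0.00127). Il18 was 8.08, 10.6 and 5.64 CPM against 11.7 and 11.9 CPM, without overlap, at -0.54 ± 0.27 (adjusted p = 0.47). Il1rl1 differed by 0.18 (adjusted p = 0.554), with 1160, 1540 and 1270 CPM against 1260 and 1090 CPM.

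In mdx mice, Il33 in MmSCs was 70.6, 302 and 281 CPM at 2.5 weeks, 1830, 1750 and 1510 CPM at 7 weeks and 970 and 1090 CPM at 12.5 weeks. The 3 ages did not overlap. Il33 rose by 3.01 ± 0.58 from 2.5 to 7 weeks (adjusted p = 0.00925, 44.5% of all genes called). The difference between 7 and 12.5 weeks was -0.63 ± 0.61 (adjusted p = 0.63, 6.34% called). From 2.5 to 12.5 weeks it was 2.38 ± 0.60 (adjusted p = 0.0382, 26.6% called), a call lost without library 3 at 2.5 weeks (adjusted p = 0.0668) or either library at 12.5 weeks (adjusted p = 0.141 and 0.145). Il1rl1 was 59.5, 219 and 138 CPM at 2.5 weeks, 1830, 2390 and 1500 CPM at 7 weeks and 777 and 774 CPM at 12.5 weeks, a rise of 3.83 ± 0.54 from 2.5 to 7 weeks (adjusted p = 0.00249). Markers of other cell types also differed between these ages: summed endothelial markers were 379 to 437 CPM at 2.5 weeks and 45.6 to 50.1 CPM at 7 weeks, Schwann cell markers 21.4 to 37.4 and 105 to 113 CPM, and pericyte and smooth muscle markers 28.6 to 57.8 and 86.6 to 162 CPM. Their part in the mdx values was not tested. The mdx experiment holds no healthy mice of these ages, so age and disease cannot be told apart in any mdx difference.

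Il18 went the other way in mdx MmSCs between 2.5 and 7 weeks. It was 18.2, 36.4 and 26.2 CPM at 2.5 weeks, 14.1, 14.7 and 13.6 CPM at 7 weeks and 18.7 and 16.3 CPM at 12.5 weeks. The fall to 7 weeks was -0.88 ± 0.24 (adjusted p = 0.00721), and the difference from 2.5 to 12.5 weeks was -0.47 ± 0.27 (adjusted p = 0.217). Of 8 receptor genes tested, 5 rose from 2.5 to 7 weeks (median 1.5, all genes -0.02, 44.5% of all genes called), Il1r1 by 1.52 ± 0.19 (adjusted p = 2.87e-05). Of 11 MyD88 genes, 3 fell, below that share, Irak3 by 0.58 ± 0.14 (adjusted p = 0.00317). Il1rn was 0.839, 1.25 and 1.36 CPM at 7 weeks and had 0 counts at the other ages. Il1b did not exceed 0.285 CPM.

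Whole tibialis anterior muscle 7 days after injury held the ligands at low levels. Il33 was 17.2, 12.5 and 13.7 CPM with aCxcl5 and 12.6, 14.2 and 13.5 CPM with IgG, a difference of 0.03 ± 0.24 (adjusted p = 0.99). Il18 was 2.87, 3.35 and 5.08 CPM against 4.51, 2.09 and 4.09 CPM, and Il1b 0.756, 1.75 and 2.45 CPM against 1.65, 0.975 and 1.26 CPM. Both overlapped between groups. Il1rn was 9.99, 21.1 and 6.97 CPM against 4.66, 4.46 and 5.98 CPM, without overlap, and the difference of 1.30 ± 0.41 did not pass (adjusted p = 0.78). In that comparison 1 gene, or 0.00749%, was called. The summed leukocyte markers were 613, 719 and 1020 CPM with aCxcl5, not in the order of Il1rn, and 475 to 602 CPM with IgG. Summed macrophage and monocyte markers were 1600, 2470 and 1850 CPM with aCxcl5 and 1130 to 1620 CPM with IgG. Library 2 with aCxcl5 held the highest of these sums and the highest Il1rn, but libraries 1 and 3 stood in opposite order. The part of these cells in the Il1rn values was not tested.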

How the data were processed

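Raw counts per gene symbol, as the authors deposited them, filled 1 table with a column for each library. The submitters' processing notes name STAR 2.7.3a, featureCounts and the mm10 (GRCm38) build. Which annotation release was counted, whether strand was used and how multi-mapping reads were treated is not given in the sources used here. From these counts, CPM (counts per 1000000 of the library total, mean ± SD) and CPM per kilobase of GENCODE M21 exon were computed. Each experiment was fitted alone with edgeR 4.0.16 (R 4.3.3), using TMM scaling and 1 mean per group, on genes kept by filterByExpr (minimum count 10). Quasi-likelihood F-tests were adjusted by Benjamini-Hochberg across the 11975 to 16374 genes of a fit, with calls below 0.05. SEs were derived from the F statistic. The fit was tested on simulated data.

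A group with 0 counts was set at 3 counts per library and its ratio given as a bound, and a group of 1 to 3 counts got a ratio with a 95% exact counting interval. PCR reads without molecular identifiers are not independent molecules, so these intervals cover counting error only. Replicate libraries differed beyond sampling noise (chi-square/df 4.228 to 55.97), so none was treated as a copy. In the reporter experiment same-numbered libraries deviated together (correlations of 0.358 to 0.618 over 3 pairs), and the blocked value is printed beside the result. Alternatives were RLE size factors, no filter, the replicate block, DESeq2 1.42.0, only the groups compared, leaving out each library, and, added after seeing the data, only library 1 of the day 1 MuSCs. The members and the gene lists were chosen with earlier results of these data known. The text names all members, up to 4 called genes per list and comparison by smallest p, Casp1, Nlrp3, Il1r1, Il1r2, Il1rl1, Il18bp and Irak3, and 3 genes of like pattern per member among tested genes whose average log2 CPM reached 3. Genes that overlap a member, Pdgfra and Dcn were added after their values were seen. Sequences are from RefSeq promoter tables.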

Additional observations from a re-analysis of the deposited data

Results flagged for a closer look

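Il18 is listed here because its response to injury differed between compartments by a test of the difference itself. The response in CD45+ cells minus that in MmSCs was 2.53 on the log2 scale, with Il18 lower at day 1 in 3 of 3 MmSC libraries than in any day 0 library. The response in CD45+ cells minus that in MuSCs was 1.29, and this difference was lost when single MuSC libraries were left out, as given above.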

How the results depend on the processing

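For 123 results, 1244 values were recomputed under the alternatives. The calls of Il18 with injury in MmSCs and MuSCs, of Il1a and Il1rn with injury in CD45+ cells, of Il33 in MmSCs above each other compartment, and of Il33 with Il-1b, Osm, their pairs and the mix at 2 and 8 h kept their direction and call in each alternative run, as did the mix at 4 h, which has 1 library. With 2 or 3 libraries per group, low counts of Il1a, Il1b and Il1rn outside CD45+ cells limit every ratio given for them. The cause of the changes below was not tested, other than the fewer libraries or genes that a setting uses.

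The Il1b ratio of 114 in CD31+ cells with injury lost its call with RLE size factors (114, adjusted p = 0.0529) and with no filter (114, adjusted p = 0.11). DESeq2 did not call Il1a in CD31+ cells at day 1 against CD45+ cells (-4.63 on the log2 scale), MmSCs or MuSCs. The count ratios of CD31+ cells, which do not depend on the fit, were at least 2.59 over MmSCs and 26.0 over MuSCs. Fits of only the 2 groups compared called Il1b in CD45+ cells (2.49) and Il33 in MmSCs (1.53), and not Il33 in MuSCs (3.63). With no filter Il33 gave 2.39 from 2.5 to 12.5 weeks in mdx mice (adjusted p = 0.104) and 0.33 in Il1b-KO mice (adjusted p = 0.00127), and it lost the calls from 2 to 8 h of the mix (-0.95, adjusted p = 0.105) and of Osm with Il-1b over Il-1b (1.17, adjusted p = 0.112). With library 1 as the only day 1 MuSC library, chosen after seeing the data, Il33 with injury in MuSCs was 1.04. Against day 1 MuSCs in that fit, Il33 was -1.55 in CD31+ and -1.97 in CD45+ cells and Il18 was 0.91 in MmSCs. There CD31+ cells stood against MuSCs at a ratio of 8.51 for Il1a, at least 16.0 for Il1rn and at 6.78 (log2) for Il1b, none of these called. In the same fit the Il33 response minus that of MuSCs turned sign, to 0.17 in CD45+ cells and 0.53 in MmSCs, neither called before or after.

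The labels share replicate numbers across groups, but outside the reporter experiment same-numbered libraries did not deviate together. With the replicate number as a block, Il33 in the reporter sort became 0.92. Under the block the Il1b ratio in CD31+ cells (114, adjusted p = 0.091), the Il1a ratio of CD31+ cells over MuSCs at day 1 (26.0, adjusted p = 0.0512) and Il33 from 2.5 to 12.5 weeks in mdx mice (2.60, adjusted p = 0.0935) lost their calls. It added calls for Osm with Il-1b over Osm in Il33 (0.83, adjusted p = 0.023) and for the Il18 response of MmSCs minus MuSCs (-1.24, adjusted p = 0.0304), and changed no other call among the members.

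Leaving out 1 library at a time changed a call or sign for some results given above and for those that follow. The latter are given as the lowest and highest value. In CD31+ cells with injury, Il1b ran from at least 23.9 to 172 and Il1rn from 1.24 to 4.68 (log2). At day 1, CD31+ cells over MmSCs ran from 10.2 to 112 for Il1rn. For Il1a they ran from at least 2.41 to at least 3.89 over MmSCs and from at least 2.63 to 39.1 over MuSCs. These ranges for Il1b and Il1a rest on 5 of 6 runs, since without library 1 of the day 1 CD31+ cells no ratio could be given. Il1b in CD31+ cells against MuSCs ran from -1.49 to 7.5, with -1.49 when library 1 of the day 1 CD31+ cells was left out. Il33 with injury in CD45+ cells ran from -1.05 to 1.78, and its response in CD31+ minus CD45+ cells from -2.83 to 0.12, with 0.08 without library 1 of the day 1 CD45+ cells. Il18 ran from -0.85 to -0.51 for CD45+ cells against MmSCs at day 0, from 0.80 to 1.24 for MmSCs against MuSCs at day 1, from -1.43 to -1.12 for the mix at 4 h and from -0.72 to -0.17 between 2.5 and 12.5 weeks in mdx mice. Il33 ran from 1.93 to 2.71 between those ages and from 0.25 to 0.42 with Il1b-KO. The Il33 response of CD31+ cells minus MuSCs was -4.58 (adjusted p = 0.0714) and ran from -6.23 to -2.35. It was called without library 1 of the day 0 CD31+ cells (adjusted p = 0.0462) or of the day 1 MuSCs (adjusted p = 0.0247). DESeq2 also called it (adjusted p = 0.0291). The Il18 response of MmSCs minus MuSCs ran from -1.51 to -0.82, with a call without library 2 of the day 1 MmSCs (adjusted p = 0.0315).

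Counts of called genes moved by over 1.5 times in some comparisons. Leaving out a library gave 1220 to 1373 calls in place of 2358 for TNFa, 164 to 398 in place of 893 for Il-17A, 178 to 544 in place of 834 between 7 and 12.5 weeks and 24 to 727 in place of 147 for Il1b-KO. The Il1b-KO count was 520 with no filter, 24 with the block and 248 with DESeq2. The aCxcl5 count was 70 with no filter, 6 with DESeq2 and 0 with RLE factors or the block, and the reporter count 287 with no filter, 1385 with the block and 177 with DESeq2. With library 1 as the only day 1 MuSC library, 4014 genes in place of 6317 were called with injury in MuSCs.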
